A study of Mus musculus with 6 samples.

Results

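The genes described here drive DNA replication and cell division, and their transcripts serve as a measure of dividing cells in a tissue. A set of 43 mouse cell cycle genes was listed by name, with earlier results of these data known, and no measured value was used to admit a gene. Each gene was read from the probe set (the group of array probes that gives 1 value) whose annotation held its symbol alone, taking the brightest where there was more than 1. This found 42 of the 43 genes among 19935 genes tested. Cyclin B1, Ccnb1, had no probe set of its own name and was not analysed here. The arrays measured total RNA of whole lung from C57BL/6 mice, 3 samples with the genotype wild type and 3 with Scnn1b-Transgenic (Scnn1b-Tg). Scnn1b is the gene of a subunit (β) of the sodium channel of airway epithelium, and the stated purpose was a search for candidate genes of emphysema, the loss of alveolar walls. The labels name no age, sex, treatment or batch, nor the promoter of the transgene. Whether the 3 samples of each genotype were separate animals is not stated either. The p-values then cover only how these samples vary, which may be technical, with a precision set by 3 arrays a group.

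A cell enters division by raising cyclin D and then cyclin E activity, which releases E2F transcription factors from the RB family of repressors. E2F then turns on the genes that license replication origins, unwind DNA and make deoxynucleotides, the S phase genes. Later B-MYB, FOXM1 and the MuvB complex turn on the genes of the spindle, kinetochore and cytokinesis, the mitosis genes. In resting cells both sets are held down, through E2F sites and through a short promoter element named the cell cycle genes homology region (CHR). Most cells of the healthy adult lung do not divide, whereas lungs of young mice and inflamed lungs hold more dividing cells.

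The genes were split by role into 17 S phase genes and 26 mitosis genes, of which 25 were measured. Cyclin A2, Mki67, Melk and Foxm1 were counted with mitosis because their transcripts peak late in the cycle. The promoters of 4 genes are shown as examples of the elements searched for in each role: Cdc6 and Mcm5 for S phase, Mki67 and Top2a for mitosis. Of the promoters that held the motif of their role, these were the 2 of each role with the smallest p between genotypes in limma. Each sequence is from RefSeq on GRCm38.p6, read 5′ to 3′ from 250 bases before the annotated start to 30 bases from it. Capitals mark E2F motifs in the S phase genes, and CHR and CCAAT motifs in the mitosis genes, on either strand.
Cdc6 (chr11:98907901-98908180, plus strand): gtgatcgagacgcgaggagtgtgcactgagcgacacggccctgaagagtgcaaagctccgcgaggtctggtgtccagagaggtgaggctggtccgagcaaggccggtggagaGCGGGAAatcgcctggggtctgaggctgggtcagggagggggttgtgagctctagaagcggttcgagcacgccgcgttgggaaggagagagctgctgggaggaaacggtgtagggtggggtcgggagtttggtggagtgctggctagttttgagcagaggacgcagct
Mcm5 (chr8:75109259-75109538, plus strand): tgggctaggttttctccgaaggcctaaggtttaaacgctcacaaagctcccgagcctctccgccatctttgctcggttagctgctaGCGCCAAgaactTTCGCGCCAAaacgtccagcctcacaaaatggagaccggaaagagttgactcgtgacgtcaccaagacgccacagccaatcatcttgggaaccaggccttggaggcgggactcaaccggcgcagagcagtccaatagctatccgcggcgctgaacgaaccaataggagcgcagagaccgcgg
Mki67 (chr7:135716350-135716629, minus strand): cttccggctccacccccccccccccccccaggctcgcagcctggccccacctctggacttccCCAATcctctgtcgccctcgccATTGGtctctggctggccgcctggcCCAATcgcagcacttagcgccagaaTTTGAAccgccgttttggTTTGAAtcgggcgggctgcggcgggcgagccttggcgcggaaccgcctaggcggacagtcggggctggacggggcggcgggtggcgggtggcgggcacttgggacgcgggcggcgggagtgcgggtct
Top2a (chr11:99024160-99024439, minus strand): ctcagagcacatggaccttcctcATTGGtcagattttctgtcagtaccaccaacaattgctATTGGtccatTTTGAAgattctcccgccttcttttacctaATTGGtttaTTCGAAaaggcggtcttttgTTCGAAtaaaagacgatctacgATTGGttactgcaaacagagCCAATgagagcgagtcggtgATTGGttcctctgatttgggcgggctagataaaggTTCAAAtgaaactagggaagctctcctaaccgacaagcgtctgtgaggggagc
In the Cdc6 promoter, 1 E2F match began 138 bases before the start. The Mcm5 promoter held 3 matches, at 164, 152 and 149 bases before the start, of which the last 2 overlap. Mki67 had 2 CHR matches (116 and 98 bases before the start) and 3 CCAAT matches. Top2a had 4 CHR matches, the nearest 23 bases before the start, and 6 CCAAT matches. Not in capitals are 1 E2F match in the Mki67 promoter and 3 CCAAT matches in the Mcm5 promoter.

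Promoters were on hand for 34 of the 42 genes (36 promoters, since Mcm7 and Prc1 had 2 each). The E2F search used the letters TTCCCGC or TTCGCGC or TTGCCGC or TTGGCGC, the CHR search used TTTGAA or TTCGAA, and the third search CCAAT, the site of NF-Y, each on both strands. An E2F match stood in 9 of 15 S phase promoters (60%) and in 2 of 21 mitosis promoters (9.52%), against 8.9% of all 32851 promoters over the same length. The reverse held for CHR, found in 13 of 21 mitosis promoters (61.9%) and 2 of 15 S phase promoters (13.3%), against 18.4% of all. CCAAT stood in 26 of the 36 promoters (72.2%), against 36.1% of all. All 15 promoters with a CHR match also held CCAAT. These matches are letters in a window and describe the 2 groups of genes independently of the arrays.

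Values are RMA intensities on a linear scale (RMA corrects background, normalizes the arrays to each other and summarises the probes of a set), or their log2. The medians of the arrays ran from 47.6 to 48.5, and their minima from 18.3 to 18.6. Of the 42 genes 13 had a mean intensity under 50 and 0 under 25. The label of the transgene was borne out by Scnn1b, at 172, 108 and 139 on wild-type arrays 1 to 3 and at 1405, 1527 and 1333 on the transgenic arrays. This is a log2 fold change of 3.37 ± 0.16 (SE, adjusted p = 0.00241 in limma). Of the lung markers, Sftpc, the surfactant gene of alveolar type 2 cells, had mean intensities of 7948 in wild type and 7973 in Scnn1b-Tg. Wild type replicate 2 stood apart from the other arrays over all genes. On the first principal component, with 34.0% of the variance, it lay at 16.3 and the other arrays between -8.91 and 5.46. Medians of fold changes over lists, or counts above 0, are therefore also given without it where they are stated.

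Most cell cycle transcripts differed more among the 3 wild-type arrays than among the 3 transgenic arrays. Replicate 1 was the highest of the 3 for 40 of 42 genes and replicate 2 the lowest for 36. For 35 genes (83.3%) the order was replicate 1, then 3, then 2, against 19.2% of all genes tested. The order held for 24 of 25 mitosis genes and for 11 of 17 S phase genes. Exceptions in which replicate 3 was the lowest were Pcna, Gmnn, Tk1, Ccne2 and Foxm1, while Cdc6 was highest on replicate 3 and Mcm10 highest on replicate 2. Of these, Gmnn, Ccne2, Foxm1, Cdc6 and Mcm10 are among the 13 genes with a mean intensity under 50. Genes that kept the order, such as Melk and Ttk, are among those 13 too. Replicate 1 lay more than 0.5 (log2) above replicate 2 for 18 genes, 17 of them mitosis genes, against 1.33% of all genes. The genes share the same 3 arrays and are not independent of each other, so these are counts on 3 samples and not a test.

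**Figure D1:**
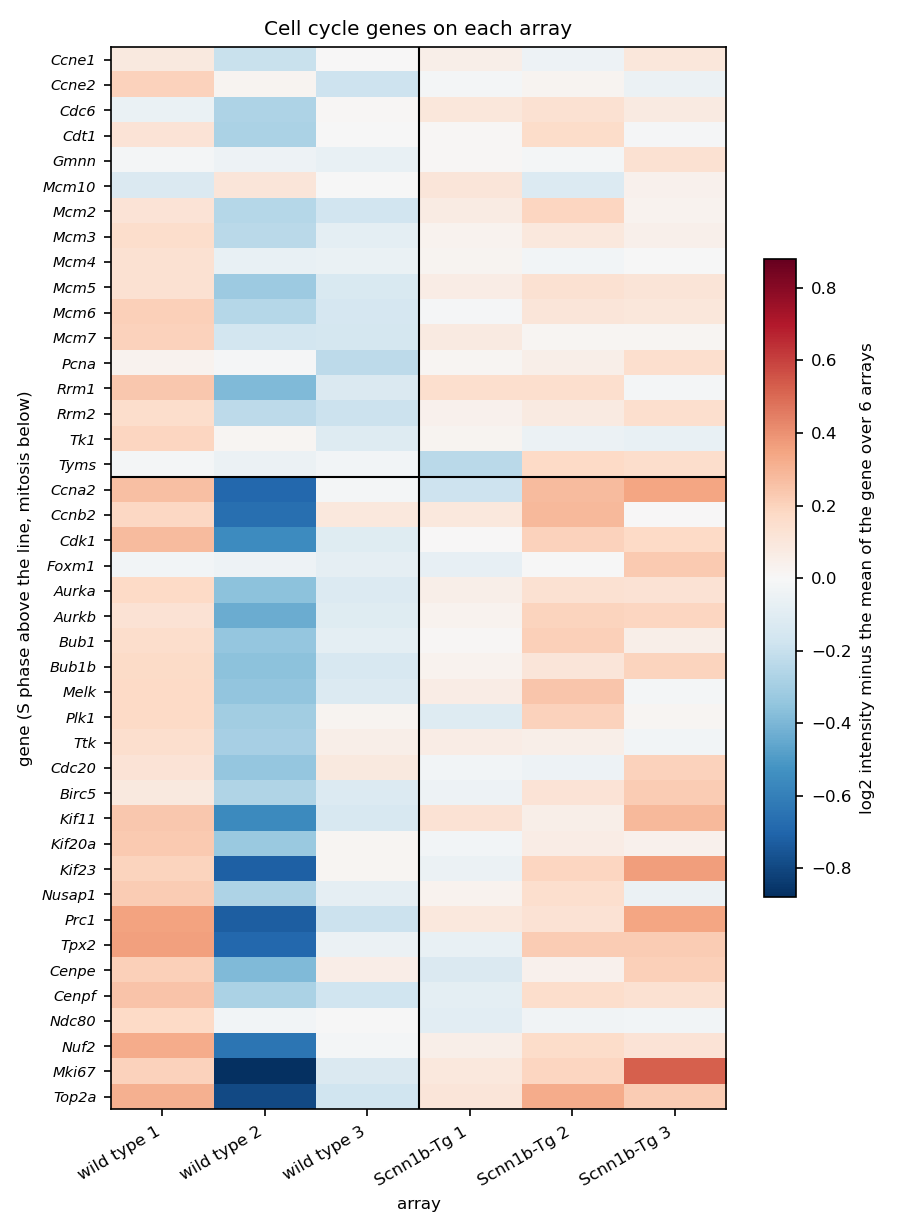
Log2 intensity of each of the 42 genes (rows) on each of the 6 arrays (columns), as the deviation from the mean of the gene over the arrays, red above and blue below. The column of wild type 2 is blue in most rows and darkest in the mitosis genes below the line, while wild type 1 is red in most rows.

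Among the markers of dividing cells the wild-type arrays spanned about a doubling. Mki67, which encodes the Ki-67 protein that coats mitotic chromosomes, had intensities of 127, 60.04 and 101 on wild-type arrays 1 to 3, and 118, 126 and 159 on the transgenic arrays. Top2a, the topoisomerase that untangles replicated DNA, had 131, 61.1 and 93.7 in wild type and 114, 133 and 124 in Scnn1b-Tg. Both genes were lowest on wild type replicate 2, where replicate 1 was 2.12-fold and 2.15-fold higher, and the groups overlapped through replicate 1. A further probe set of Top2a gave 19.8 to 21.8 over the 6 arrays, near the lowest values measured, and a log2 fold change of 0.0052 between the genotypes. It was not used.

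The motor of mitotic entry, cyclin-dependent kinase 1 with its cyclins, followed the same order. Cdk1 had 98.7, 55.5 and 75.6 on wild-type arrays 1 to 3 and 81.5, 93.5 and 91.7 on the transgenic arrays. All 3 transgenic values of Cdk1 fell between those of wild type replicates 1 and 2. Its partners Ccna2 (cyclin A2) and Ccnb2 (cyclin B2) were 1.94-fold and 1.79-fold higher on wild type replicate 1 than on replicate 2. Foxm1, the transcription factor that drives many mitosis genes, did not share the pattern. It had 39.3, 38.6 and 37.7 in wild type and 38.0, 39.8 and 46.9 in Scnn1b-Tg, so only transgenic replicate 3 stood out. All of these values lay below the lowest array median, 47.6.

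All 7 mitotic kinases showed the order replicate 1, 3, 2, with log2 differences of 0.44 to 0.57 between wild type replicates 1 and 2. Aurkb, the kinase that corrects chromosome attachment, had 68.9, 46.5 and 58.6 in wild type and 64.3, 72.2 and 71.8 in Scnn1b-Tg. Bub1b, a spindle checkpoint kinase-like protein, had 76.1, 52.9 and 61.6 in wild type and 69.2, 73.2 and 77.9 in Scnn1b-Tg. In both, wild type replicate 1 lay within the range of the transgenic arrays and the other wild-type arrays below it. The other kinases were Aurka, Plk1, Ttk, Bub1 and Melk, and Cdc20, the activator of anaphase, had a difference of 0.46.

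The 7 genes of the spindle and of cytokinesis covered a wider span, from 0.35 to 1.08 between wild type replicates 1 and 2. Birc5, survivin, the partner of Aurora B, had the smallest of these, with 44.6, 35.02 and 38.8 in wild type and 40.8, 45.8 and 49.0 in Scnn1b-Tg. Prc1, which bundles microtubules of the central spindle, had the largest at 1.08, followed by Tpx2, a spindle assembly factor, at 1.05. The motor proteins Kif23 (0.91), Kif11 (0.80) and Kif20a (0.56) and the spindle protein Nusap1 (0.49) lay between. Of the 4 kinetochore genes, Nuf2 had a difference of 0.97 and Ndc80 of 0.20, although their proteins form 1 complex. Cenpe and Cenpf had 0.60 and 0.53.

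The MCM genes were the largest group of S phase genes, with 7 members including Mcm10. The MCM helicase, which unwinds DNA at the fork, is formed by Mcm2 to Mcm7. Mcm2 had 98.7, 76.1 and 80.8 on wild-type arrays 1 to 3 and 95.4, 103 and 92.8 on the transgenic arrays. Mcm5 had 89.5, 65.6 and 74.5 in wild type and 85.7, 89.7 and 88.5 in Scnn1b-Tg. For both, wild type replicate 1 lay within the range of the transgenic values and replicates 2 and 3 below it. Mcm2 to Mcm7 had differences of 0.20 to 0.46 between wild type replicates 1 and 2. Mcm10, a replication factor outside that helicase ring, ran the other way at -0.23.

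Origin licensing and DNA synthesis genes were less alike. Cdc6, which loads the helicase onto origins, had 44.3, 38.2 and 46.5 in wild type and 49.4, 50.7 and 48.8 in Scnn1b-Tg, and the lowest transgenic value was above the highest wild-type value. Its partner Cdt1 was 1.32-fold higher on wild type replicate 1 than on 2, while Gmnn, geminin, the inhibitor of Cdt1, ran only from 33.6 to 34.8 in wild type. Rrm2, the small subunit of ribonucleotide reductase, had 86.8, 66.5 and 68.7 in wild type and 80.3, 82.6 and 86.4 in Scnn1b-Tg. All 3 transgenic values of Rrm2 lay within the wild-type range, as did those of the large subunit gene Rrm1, which had the largest S phase difference, 0.62, between wild type replicates 1 and 2. Pcna, the sliding clamp of DNA polymerase, had 384, 373 and 319.9 in wild type and 379, 389 and 416 in Scnn1b-Tg, and here replicate 3, not 2, was low. Its further probe set gave a log2 fold change of 0.11 against 0.14. Tyms and Tk1, enzymes of thymidylate supply, differed by 0.04 and 0.17 between wild type replicates 1 and 2. The further probe set of Tk1 gave a fold change of 0.07 against -0.06, so its direction depends on the probe set. Ccne1, cyclin E1, had 46.5, 38.2 and 43.9 in wild type and 45.4, 42.3 and 46.9 in Scnn1b-Tg, with overlapping groups, and Ccne2 differed by 0.18.

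Set side by side, the mitosis genes spread further than the S phase genes. The median log2 difference between wild type replicates 1 and 2 was 0.56 over mitosis genes and 0.28 over S phase genes, against 0.00 over all genes, and 23 of 25 mitosis genes lay above the S phase median. A group of 10 mitosis genes (Top2a, Mki67, Prc1, Tpx2, Nuf2, Ccna2, Kif23, Ccnb2, Cdk1 and Kif11) lay above the highest S phase gene. As mean deviations from the average of the 6 arrays, mitosis genes stood at 0.20, -0.45 and -0.06 on wild-type arrays 1 to 3 and at -0.0014, 0.15 and 0.16 on transgenic arrays 1 to 3. S phase genes stood at 0.10, -0.15 and -0.10 in wild type and at 0.03, 0.06 and 0.06 in Scnn1b-Tg. Mitosis genes on wild type replicate 3 were thus close to the average, while S phase genes were nearer to replicate 2. S phase minus mitosis was 0.30 on wild type replicate 2 and between -0.11 and 0.03 on the other arrays. The 12 mitosis genes with a CHR match had a median difference of 0.81 (0.44 to 1.10) between wild type replicates 1 and 2, and the 8 with a promoter and no match had 0.51 (0.20 to 0.97). These values overlap and were not tested. The groups also differed in brightness. Without a match, Birc5, Ndc80, Melk, Nusap1 and Cenpe had mean intensities under 50 in both genotypes, as had Cenpf and Ttk with a match. The part of brightness in this difference was not tested.

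**Figure D2:**
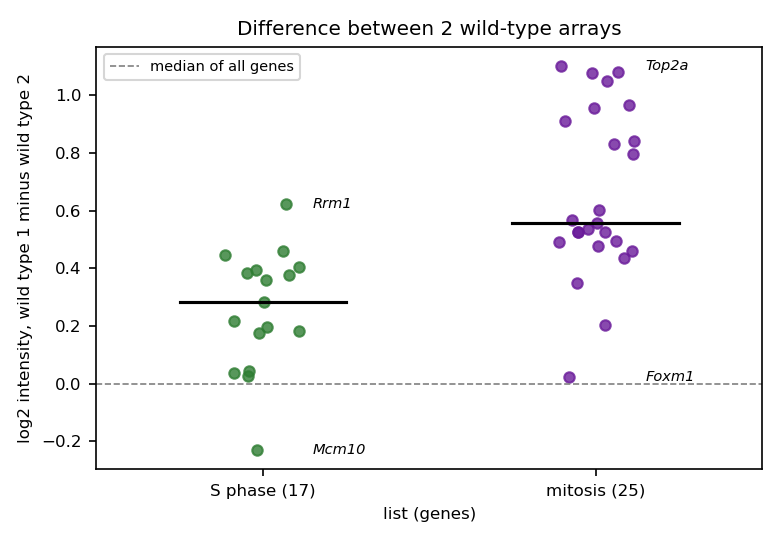
Log2 intensity on wild type replicate 1 minus that on replicate 2 (vertical axis) for each S phase and mitosis gene (points), with the median of each list (black bar) and of all genes (dashed line). The medians are 0.28 and 0.56, and mitosis genes reach 1.10.

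The larger spread within wild type held for most genes. The SD of log2 values over the 3 arrays had a median of 0.25 in wild type and 0.10 in Scnn1b-Tg over the 42 genes, against 0.07 and 0.07 over all genes. The wild-type SD was the larger for 39 of 42 genes, against 53.2% of all genes, and the exceptions were Gmnn, Tyms and Foxm1. For 18 of 42 genes (42.9%) all 3 transgenic values lay inside the wild-type range, against 21.8% of all genes. These counts rest on the same wild-type arrays, with replicate 2 included, and were not made without it.

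Comparing genotypes, 38 of 42 genes had a log2 fold change above 0 in Scnn1b-Tg, against 53.2% of all genes, but 0 of 42 passed an adjusted p of 0.05 in limma (fitted and adjusted over all genes). Over all genes 0.00502% passed, which is Scnn1b alone. The adjusted p-values of the 42 genes ran from 0.757 to 0.998. At an unadjusted p under 0.05 there was 1 gene, Cdc6, where 3.96% of all genes were higher and 2.05% lower at that level. The 3 transgenic arrays lay wholly above the wild-type arrays for 2 of 42 genes, Cdc6 and Gmnn, against 6.26% of all genes, and wholly below for 0, against 4.41%. The share of genes set apart by genotype was therefore near the background. In bulk tissue a larger number of dividing cells and more RNA per dividing cell cannot be told apart.

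The median log2 fold change was 0.16 over the 42 genes, 0.11 over S phase genes and 0.21 over mitosis genes, against 0.0052 over all genes. The largest value was that of Mki67, 0.54 ± 0.26 (SE), from 96.03 ± 33.8 (SD, n = 3) in wild type to 134 ± 21.6 in Scnn1b-Tg, with an adjusted p of 0.867. Top2a followed with 0.44 ± 0.25, from 95.3 ± 35.03 to 123 ± 9.35 (adjusted p = 0.893). Next were Prc1 (0.38 ± 0.25), Kif23 (0.34 ± 0.23) and Kif11 (0.31 ± 0.19), which were 0.11, 0.06 and 0.11 without wild type replicate 2. The smallest p belonged to the S phase gene Cdc6, at 0.21 ± 0.08 (adjusted p = 0.757). It was followed by the mitosis genes Mki67 and Aurkb (0.28 ± 0.14) and by Mcm5 (0.21 ± 0.11). Without wild type replicate 2 Cdc6 was 0.13, Aurkb 0.13 and Mcm5 0.11. Values below 0 were those of Ndc80 (-0.10 ± 0.06), Tk1 (-0.06 ± 0.08), Ccne2 (-0.03 ± 0.09) and Mcm4 (-0.0036 ± 0.06).

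These medians depended on single wild-type arrays. Without wild type replicate 2 the median over the 42 genes was 0.04, with 27 genes above 0 and 15 below. Mitosis genes then had a median of 0.04 and S phase genes of 0.04, so their difference, -0.10 with all arrays, was -0.0034. Mki67 was 0.23 and Top2a 0.15 without that array, and Ccnb2, Tpx2, Nuf2, Cdc20, Nusap1, Ttk, Plk1, Cenpe, Kif20a, Cdt1 and Ccne1 turned below 0. Pcna, Gmnn and Foxm1 were hardly affected, at 0.17, 0.09 and 0.10. Without wild type replicate 1, the array with the most cell cycle transcript, the median over the 42 genes was 0.28 and 40 genes were above 0, with Mki67 at 0.77 (adjusted p = 0.465). In both cases 0 of the 42 genes passed the adjusted threshold.

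**Figure D3:**
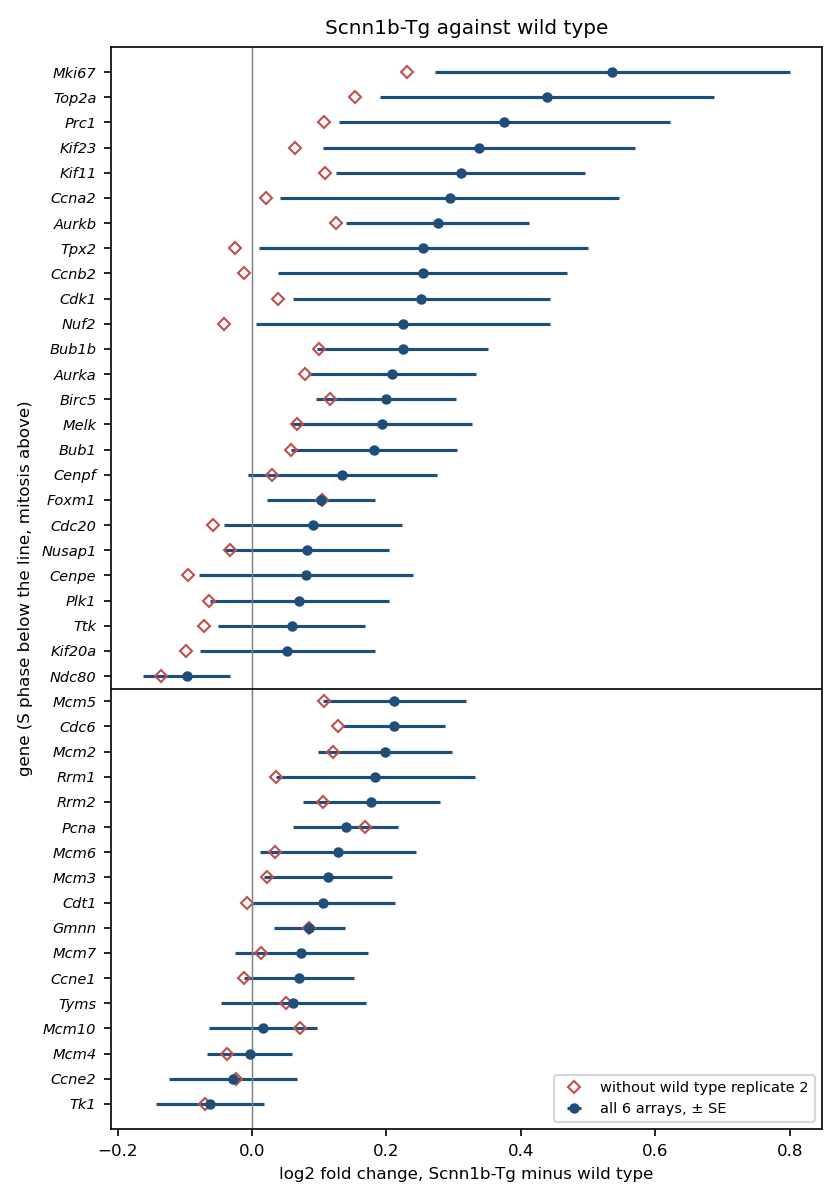
Log2 fold change of each gene, Scnn1b-Tg minus wild type, with all 6 arrays (filled points, bars are the SE of limma) and without wild type replicate 2 (open diamonds). Most diamonds lie nearer to 0 than the points, and the shift is largest in mitosis genes such as Mki67 (0.54 to 0.23) and Top2a (0.44 to 0.15).

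Other genes of the cell cycle were read from lists by role, 102 genes of which 99 were measured, and 0 of them passed the adjusted threshold. Among 44 further mitosis genes 36 showed the wild-type order 1, 3, 2 (81.8%) and 42 had a fold change above 0, with a median of 0.16 that was 0.06 without wild type replicate 2. Their smallest p-values belonged to the motor protein Kif14 (0.22 ± 0.06) and the condensin subunit Smc2 (0.27 ± 0.08), with adjusted p-values of 0.558 and 0.649. Among 27 further S phase genes 14 showed that order (51.9%) and 20 had a fold change above 0, with a median of 0.07. Without wild type replicate 2 these were 16 genes and 0.03. They were led by the histone chaperone Asf1b (0.32 ± 0.12, adjusted p = 0.760) and the clamp loader subunit Rfc4 (0.19 ± 0.08, adjusted p = 0.817). The mitosis lists thus had a larger share in this order than the S phase lists in both sets of genes.

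Of the genes that act before S phase, the G1 cyclins, their kinases and the phosphatase Cdc25a shared the wild-type order, in 6 of 7 genes (85.7%). All 7 were highest on wild type replicate 1, by 0.22 to 0.45 over replicate 2, with a median of 0.30 beside the 0.28 of S phase genes. Their median fold change was 0.04 with all arrays and -0.03 without wild type replicate 2, where 5 of 7 were below 0. The smallest p-values were those of Ccnd3 (0.11 ± 0.08, adjusted p = 0.922) and Cdc25a (0.09 ± 0.09, adjusted p = 0.966), which were 0.03 and -0.014 without that array. Of the 6 CDK inhibitors measured 2 showed the order (33.3%), and their fold changes were split, with 3 above and 3 below 0 and a median of -0.0015 (0.00020 without wild type replicate 2). Cdkn1b, p27, had 0.10 ± 0.06 and Cdkn2b, p15, 0.11 ± 0.07 (adjusted p of 0.893 and 0.897), and Cdkn2b was 0.06 without wild type replicate 2. Among 15 RB, E2F and B-MYB factors 5 showed the order (33.3%) and 10 were above 0, 7 without wild type replicate 2, and their median difference between wild type replicates 1 and 2 was 0.06. Rbl2, the p130 protein of resting cells, had the smallest p (0.18 ± 0.05, adjusted p = 0.543), followed by Tfdp1, the partner of E2F (-0.19 ± 0.07, adjusted p = 0.757).

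**Figure D4:**
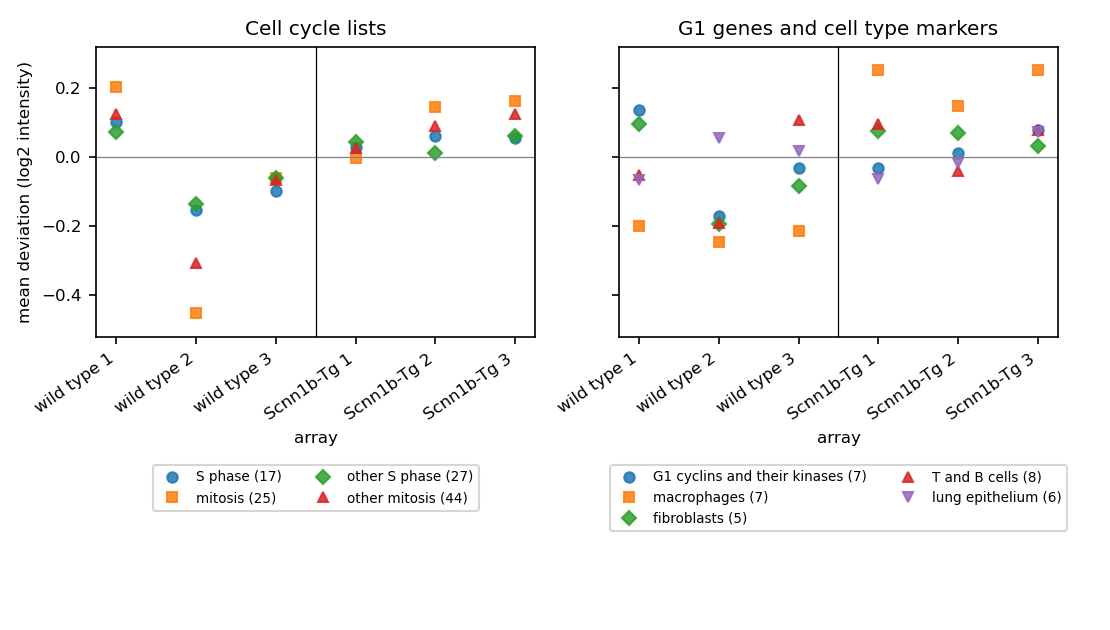
Mean deviation of log2 intensity from the average of the 6 arrays (vertical axis) for cell cycle lists (left) and for G1 genes and cell type markers (right), with the number of genes of each list in brackets. Mitosis genes reach -0.45 on wild type 2, and macrophage markers lie below 0 on all wild-type arrays and above 0 on all transgenic arrays.

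Markers of cell types that could carry these transcripts were read on the same arrays, and their part in the results was not tested. All 7 measured macrophage markers had a fold change above 0 (median 0.37), as had 6 of 7 without wild type replicate 2 (median 0.37), and their summed intensity was 732 to 742 on wild-type arrays and 929 to 1015 on transgenic arrays. On the wild-type arrays this sum was nearly level, unlike the summed intensity of the 42 cell cycle genes, at 3515, 2533 and 2932. Singly, 2 of the 7 macrophage markers (28.6%) showed the order 1, 3, 2. These were Itgam and Adgre1, higher on wild type replicate 1 than on 2 by 0.36 and 0.20. The median of this difference over the 7 markers was -0.0048. Fibroblast markers summed to 6409, 4743 and 5096 on wild-type arrays 1 to 3, in the order of the cell cycle genes. Taken singly, 2 of the 5 genes showed that order (40%). The fibroblast sum was 5618 to 6008 on the transgenic arrays, with 4 of 5 fold changes above 0 and a median of 0.13. Without wild type replicate 2 the median was 0.07, with 4 above 0. Within that list the collagen genes Col1a1, Col1a2 and Col3a1 were higher on wild type replicate 1 than on 2 by 0.69, 0.65 and 0.61, but Pdgfra and Dcn by -0.12 and -0.38. T and B cell markers summed to 421 to 559 in wild type and 489.7 to 566 in Scnn1b-Tg, with 6 of 8 fold changes above 0. The median fold change of these markers was 0.11, and 0.02 without wild type replicate 2, where 5 were above 0. Their sum was lowest on wild type replicate 2, as were 4 of the 8 genes, while Cd3g and Cd4 had the highest of the 3 wild-type values there. Neutrophil and precursor markers (349.7 to 386 and 353 to 403, 3 of 8 above 0) and endothelial markers (3793 to 4122 and 3652 to 4022, 1 of 5 above 0) overlapped between genotypes. Without wild type replicate 2 these counts were 1 of 8 and 1 of 5. Erythroid precursor markers summed to 869.9 to 963 in wild type and 748 to 859.8 in Scnn1b-Tg. This sum was not lowest on wild type replicate 2. Alas2, the brightest of these genes in wild type, had 420, 425 and 438 there and 239, 325 and 386 in Scnn1b-Tg. Of the 7 genes 2 had a fold change above 0, with a median of -0.04. Without wild type replicate 2 these were 4 genes and 0.03. The thymocyte markers summed to 153 to 161 and 151 to 162, and Rag2 and Dntt had mean intensities of 20.6 and 23.6 in wild type, near the lowest values of the arrays. No marker was at 0, since RMA gives every probe set a value above 0. Lung epithelial markers summed to 21035 to 22985 in wild type and 20872 to 22327 in Scnn1b-Tg. With or without wild type replicate 2, 5 of 6 fold changes were above 0, the exception being the club cell gene Scgb1a1.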

How the data were processed

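Total RNA from lung was labelled by a whole-transcript method, per the labels' protocols, and the authors deposited 1 intensity per probe set and array, which the submitters' processing notes credit to RMA. The RMA version was not given in the sources used here. The values themselves show a linear scale. Of 28815 probe sets 21780 had 1 symbol, 1605 several and 5430 were not listed in the platform annotation. The first kind was used, the brightest probe set per gene, 19935 genes in all. Log2 intensities were fitted with limma 3.58.1 (R 4.3.3) with genotype as the only term. The two-sided p-values were adjusted by Benjamini-Hochberg across all genes, with a threshold of 0.05, and errors of fold changes are standard errors. The fit was tested on simulated data in which genes varied independently and changes were larger than those of the cell cycle genes. No simulated array stood apart, so that test does not cover changes as small as these or an array like wild type replicate 2.

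Named with values on every array were 8 genes listed beforehand (7 measured), the 6 others with the smallest p, and members whose probe sets differ by over 0.2. Of each further list the 2 genes with the smallest p were named with their fold changes. Sgo1, Sgo2a and Knl1 were matched through older symbols. Promoters came from RefSeq (GRCm38.p6), and those shown were the 2 of each role with the smallest p that held its motif. The genes and lists were chosen with earlier results of these data known. Alternatives were other normalizations, filters, probe set rules and variance models, array weights, a replicate block, an offset of 16 subtracted, and arrays left out. The labels do not say whether replicate numbers pair the arrays. Same-numbered arrays had deviations from their group means correlated at 0.03, 0.03 and 0.04 across genes. These values cannot decide it, because arrays of different numbers were not compared.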

Additional observations from a re-analysis of the deposited data

How the results depend on the processing

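The 0 calls among the 42 cell cycle genes held in every alternative run. The count of called genes overall was 1, and it was 39 where the 6645 dimmest genes were dropped, 23 with 16 subtracted, 36 with robust variances that follow an intensity trend, 3 with the replicate block, 6 with wild type replicate 2 and Scnn1b-Tg replicate 3 both left out, and 0 to 5 with single arrays left out, at 0 when wild type replicate 3 was dropped and 5 when transgenic replicate 3 was. The cause of these differences was not tested. With the replicate block all medians stayed as they were and 0 cell cycle genes were called.

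With single arrays left out the median log2 fold change ran from 0.04 to 0.28 over the 42 genes, from 0.04 to 0.19 over S phase genes and from 0.04 to 0.35 over mitosis genes, lowest without wild type replicate 2 and highest without wild type replicate 1. With wild type replicate 2 and Scnn1b-Tg replicate 3 both left out these medians were 0.02, 0.03 and 0.01, and 26 of 42 genes were above 0. With 16 subtracted they were 0.22, 0.15 and 0.33. The number of genes with the wild-type order 1, 3, 2 was 32 after quantile normalization and 34 to 36 in the other alternatives run, 34 of 39 where the dimmest genes were left out. Of 195 values of the 13 named genes over the alternatives, 2 reversed, both of Ccne1: -0.012 without wild type replicate 2, where single arrays left out gave up to 0.13, and -0.043 with both arrays left out. Dim genes near the lowest intensities have fold changes smaller than those of the signal above that floor, if a constant was added before deposit.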
